A study of Mus musculus with 9 samples.

Results

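The Ms4a genes encode small proteins that cross the cell membrane in 4 passes. This account covers 8 of them, Ms4a1, Ms4a4a, Ms4a4b, Ms4a4c, Ms4a6b, Ms4a6c, Ms4a6d and Ms4a7, taken by symbol from a table of 56748 mouse genes. No member symbol was repeated in the table, and all 8 had enough counts to be tested. The table holds raw counts of polyadenylated RNA for 3 groups of 3 libraries each, all from wild-type mice of the C57BL/6J strain aged 2 to 3 months. Reactive cultures were grown without any sort from the cores of cortical lesions, in medium with 10% serum. Injured cortex was lesion core after a grid of lancet stab wounds, and uninjured cortex was intact tissue. Cells of both cortex groups were freshly dissociated and sorted, and the sort removed debris, dead cells and the neuronal fraction (CD171 positive, ACSA-2 negative). The labels give 1 day from injury to collection or dissection and 6 days in culture. The series design text gives 3 days for injured cortex, and 24 hours and 8 days for the cultures. Both are given here because the sources differ.

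The family is best known for Ms4a1, which encodes CD20, the surface protein of B cells that therapeutic antibodies bind. Ms4a4a and Ms4a7 encode membrane proteins of macrophages, and in the mouse brain Ms4a7 RNA is found in border macrophages and in macrophages that arise from blood monocytes, with little in resting microglia. Ms4a4b encodes a protein of mouse T cells that tunes their activation. The mouse carries several related genes of the Ms4a4 and Ms4a6 type, among them Ms4a4a, Ms4a4b and Ms4a4c on one side and Ms4a6b, Ms4a6c and Ms4a6d on the other. In humans the MS4A locus is linked to Alzheimer's disease risk and to the level of soluble TREM2, a receptor of myeloid cells.

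All 8 genes lie in one cluster on chromosome 19. In the RefSeq order on GRCm38.p6 the run Ms4a7, Ms4a4a, Ms4a4c, Ms4a4b, Ms4a6c, Ms4a6b has no other Ms4a gene inside it, while Ms4a1 lies to one side of it and Ms4a6d to the other. The promoter windows below, from 250 bases before to 50 after the gene's start, show the members whose levels are described next and how near to copies some of them are. They come from RefSeq on GRCm38.p6, which is not the GRCm39 build named for the counts. Windows were found for 6 of the 8 genes. Capitals mark GGAAGT, core letters of motifs bound by the myeloid and B cell factor PU.1, or the reverse complement ACTTCC.
Ms4a7: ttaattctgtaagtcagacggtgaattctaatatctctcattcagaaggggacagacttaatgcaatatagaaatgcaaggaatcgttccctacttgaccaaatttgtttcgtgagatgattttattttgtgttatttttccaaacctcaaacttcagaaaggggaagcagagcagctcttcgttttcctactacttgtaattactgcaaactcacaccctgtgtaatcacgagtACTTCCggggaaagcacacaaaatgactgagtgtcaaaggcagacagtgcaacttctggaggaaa
Ms4a4c: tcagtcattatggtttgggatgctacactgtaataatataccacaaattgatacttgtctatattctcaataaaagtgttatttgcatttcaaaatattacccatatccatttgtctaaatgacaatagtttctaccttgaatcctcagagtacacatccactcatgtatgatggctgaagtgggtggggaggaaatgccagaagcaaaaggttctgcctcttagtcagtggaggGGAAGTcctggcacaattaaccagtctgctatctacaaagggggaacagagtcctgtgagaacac
Ms4a4b: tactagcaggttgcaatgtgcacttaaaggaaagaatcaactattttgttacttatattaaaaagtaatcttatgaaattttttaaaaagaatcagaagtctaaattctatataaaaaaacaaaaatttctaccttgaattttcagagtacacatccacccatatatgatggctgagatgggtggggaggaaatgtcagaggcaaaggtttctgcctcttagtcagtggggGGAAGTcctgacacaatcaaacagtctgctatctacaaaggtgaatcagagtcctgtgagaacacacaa
Ms4a6c: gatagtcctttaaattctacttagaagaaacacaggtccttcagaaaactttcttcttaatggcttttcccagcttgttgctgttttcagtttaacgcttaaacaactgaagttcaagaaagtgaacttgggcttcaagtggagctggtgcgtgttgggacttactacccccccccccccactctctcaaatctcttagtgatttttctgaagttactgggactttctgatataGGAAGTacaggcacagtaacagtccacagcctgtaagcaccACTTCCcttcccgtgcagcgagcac
Ms4a6b: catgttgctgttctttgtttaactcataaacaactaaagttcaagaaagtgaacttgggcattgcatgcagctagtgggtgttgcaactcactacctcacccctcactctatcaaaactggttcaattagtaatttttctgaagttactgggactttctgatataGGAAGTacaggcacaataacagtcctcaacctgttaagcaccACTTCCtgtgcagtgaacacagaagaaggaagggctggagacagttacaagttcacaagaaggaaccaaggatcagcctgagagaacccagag
The window of Ms4a7 is chr19:11336097-11336396 on the minus strand. The others are on the plus strand, Ms4a4c at chr19:11407411-11407710, Ms4a4b at chr19:11443308-11443607, Ms4a6c at chr19:11469118-11469417 and Ms4a6b at chr19:11518309-11518608. The Ms4a4c and Ms4a4b windows held identical bases at 162 of 182 locally aligned positions (89.0%), and the Ms4a6c and Ms4a6b windows at 182 of 213 (85.4%). The PU.1 letters began 15 bases before the start in Ms4a7 and in Ms4a4c, at position -19 in Ms4a4b and at -16 in Ms4a6c, counting the start base as 0. Ms4a6c held a second copy at 25, and Ms4a6b had its copies at -85 and -43. They were absent from the window of Ms4a4a and from a second window of Ms4a7. Of 32851 mouse windows of this length, 23.8% held the PU.1 letters on either strand. AP-1 letters (TGANTCA) were found in the Ms4a4b window and in the second Ms4a7 window, and in 7.81% of all windows. No member window held the C/EBP letters TTGCNNAA or the letters of the interferon-stimulated response element, which 10.8% and 3.44% of all windows held. E-box letters (CANNTG) were in the windows of Ms4a4a, Ms4a4c and Ms4a6c and in the second window of Ms4a7, and in 72.3% of all windows. These matches describe letters only, and the near-copy windows are not independent of each other.

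Total counts ranged from 12205049 to 24302770 per library. Uninjured replicates 2 and 3 stood apart: 1999 olfactory and vomeronasal receptor genes, which cortex cells use little, summed to 152 and 112 CPM (counts scaled to library size) there, against 18.4 to 39.0 CPM in the other 7 libraries. Test results of the 8 genes that rest on uninjured cortex are therefore also given with both left out. For other genes and for sums, shares and ratios this was not computed, and the values of each uninjured library stand where they are printed. Replicates of each group differed by more than counting noise. Levels below are CPM scaled with TMM factors (the trimmed mean of M values), given for replicates 1, 2 and 3 in that order. Changes are log2 fold changes ± SE from edgeR's quasi-likelihood test over 18093 genes, called at a Benjamini-Hochberg adjusted p under 0.05. In RNA pooled from mixed cells, as in all libraries here, fewer cells of a type and less RNA per cell cannot be told apart. Cortex cells were sorted and cultures were not, so between them the sort and the growth in culture cannot be told apart.

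After injury, 7 of the 8 genes rose in cortex and none fell, with a median log2 change of 3.31 over the 8 against 0.00 over all genes tested. Of all genes tested, 8.99% were called higher and 2.87% lower in injured than in uninjured cortex, 11.9% in either direction. Ms4a4c had the largest change of the 8 and Ms4a1, the B cell gene, was not called. In cultures the family was arranged differently. Ms4a7 was higher than in injured cortex, 6 genes were lower and Ms4a6d was not called, where 20% of all genes were called higher and 30.1% lower, 50.1% in all. The median log2 change of the 8 was -2.71, against -0.19 over all genes. Against uninjured cortex, cultures had 3 genes higher (Ms4a6c, Ms4a6d and Ms4a7) and 2 lower (Ms4a1 and Ms4a4c), where 27.5% of all genes were called higher and 33.1% lower, 60.5% in all. The median there was 0.44, against -0.17 over all genes. The size fitted for Ms4a1, which rests on 2 culture counts, does not enter either culture median. The libraries of the groups did not overlap for 6 genes in injured over uninjured cortex, all higher, where 16.1% of all genes were higher and 12.5% lower without overlap. In cultures over injured cortex 1 gene was higher and 5 were lower without overlap (25.8% and 33.8% of all genes), and in cultures over uninjured cortex 4 were higher and 2 lower (32.1% and 37.1% of all genes). The 3 comparisons share libraries, so their results are not independent of each other. Another scaling moved the balance of calls over all genes. Higher calls were 75.8% of calls in injured over uninjured cortex but 64.0% with upper-quartile factors and 65.7% with library sizes that leave out the most abundant genes. They were 39.9% in cultures over injured cortex but 29.2%, and 45.4% in cultures over uninjured cortex but 31.6%, with those library sizes.

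**Figure D1:**
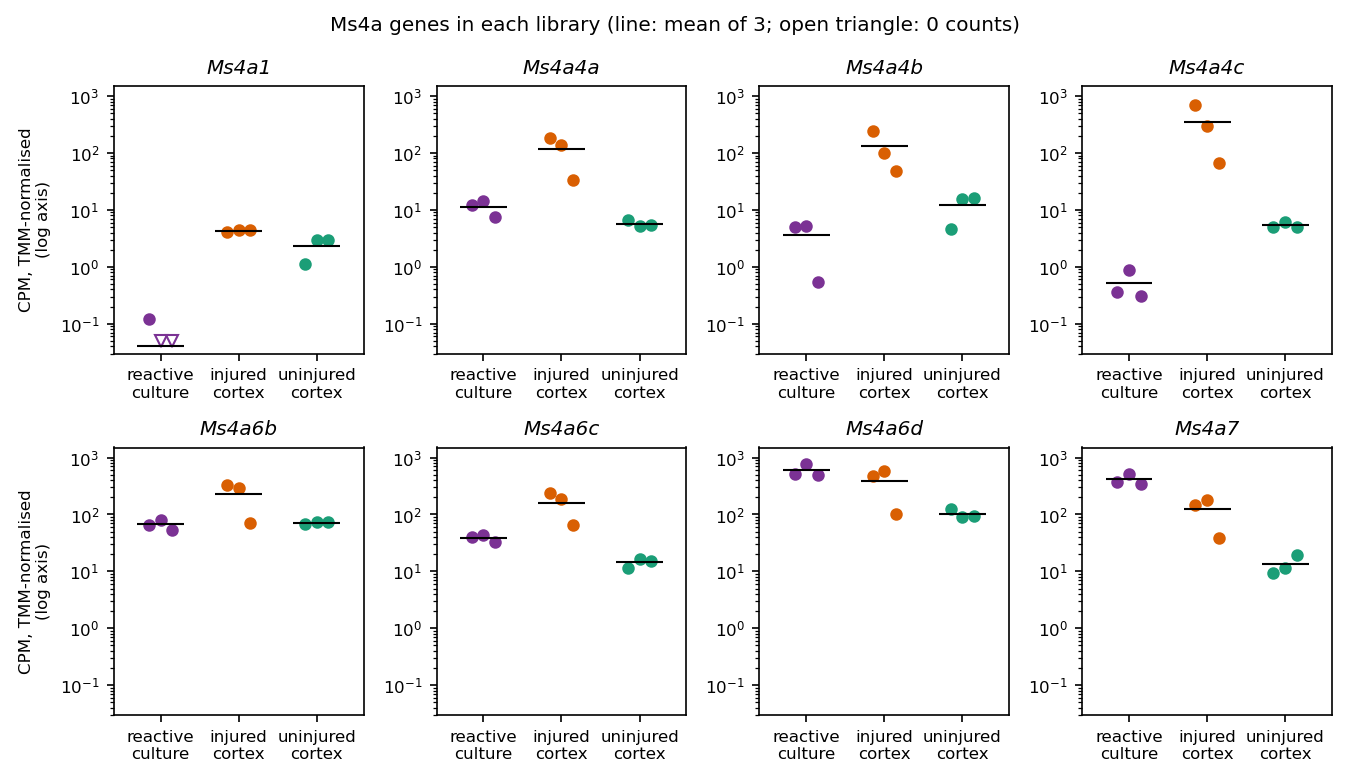
Level of each Ms4a gene in each library, in TMM-normalised CPM on a log axis, with reactive cultures, injured cortex and uninjured cortex from left to right. Points are libraries in replicate order, lines are means of 3 and open triangles mark libraries with 0 counts. Injured replicate 3 is the lowest injured library for every gene except Ms4a1. For Ms4a7 every culture lies above every cortex library.

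**Figure D2:**
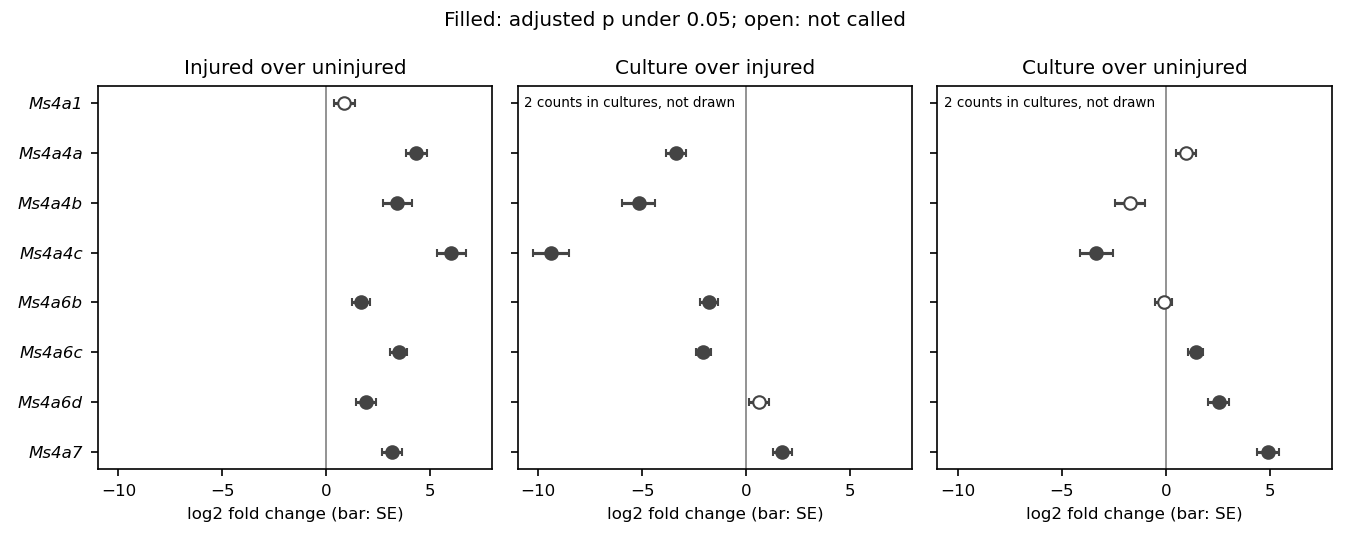
Log2 fold change of each Ms4a gene in the 3 comparisons, with bars for the SE; filled points have an adjusted p under 0.05 and open points do not. Ms4a1 is not drawn where cultures are compared, because the cultures held 2 counts of it in all. Changes of injured over uninjured cortex lie between 0.88 and 6.03, whereas those of cultures over injured cortex lie between -9.37 and 1.75.

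Ms4a7, a gene of macrophages, had its own highest levels in the cultures, where Ms4a6d was higher still. It had 371, 522 and 349 CPM in cultures, 148, 181 and 38.6 CPM in injured cortex and 9.45, 11.7 and 19.6 CPM in uninjured cortex. No group overlapped another, and the lowest injured library, replicate 3, was still above the highest uninjured one. Ms4a7 averaged 414 ± 93.9 CPM in cultures, 123 ± 74.7 CPM in injured cortex and 13.6 ± 5.36 CPM in uninjured cortex (SD, n = 3 each). By edgeR's test it was higher in injured than in uninjured cortex by 3.18 ± 0.50 on the log2 scale (adjusted p = 0.00145). Cultures were higher than injured cortex by 1.75 ± 0.47 (adjusted p = 0.00824) and than uninjured cortex by 4.93 ± 0.54 (adjusted p = 1.02e-05). All 3 calls were kept under the 19 alternatives tried for each. With uninjured replicates 2 and 3 left out, the change in injured cortex was 3.68 (adjusted p = 0.0485) and that of cultures over uninjured cortex was 5.44 (adjusted p = 0.0012).

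Ms4a6d, a gene of macrophages and microglia in mice, had the highest mean of the 8 per kilobase of transcript in all 3 groups. Its levels were 514, 766 and 503 CPM in cultures, 482, 574 and 100.4 CPM in injured cortex and 124, 88.9 and 92.9 CPM in uninjured cortex. Injured replicates 1 and 2 lay near the cultures, whereas injured replicate 3 lay inside the uninjured range, so the cortex groups overlapped. Ms4a6d averaged 594 ± 149 CPM in cultures, 386 ± 251 CPM in injured cortex and 102 ± 19.0 CPM in uninjured cortex (SD, n = 3 each). The test called it higher in injured than in uninjured cortex by 1.92 ± 0.49 (adjusted p = 0.0242). That call was lost in a fit of the cortex groups alone (adjusted p = 0.0718), on dropping injured replicate 1 (0.0975) or 2 (0.0756), on dropping uninjured replicate 2 (0.105) or 3 (0.092), and with uninjured replicates 2 and 3 left out together (1.62, adjusted p = 0.388). Cultures exceeded uninjured cortex by 2.55 ± 0.50 (adjusted p = 0.000965), or by 2.25 (adjusted p = 0.0546) with uninjured replicates 2 and 3 left out. Cultures and injured cortex did not differ past the threshold (0.62 ± 0.48, adjusted p = 0.288).

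Ms4a4a, whose product marks macrophages, was highest in injured cortex. It had 12.1, 14.2 and 7.59 CPM in cultures, 181, 138 and 33.0 CPM in injured cortex and 6.52, 5.26 and 5.43 CPM in uninjured cortex. Every library of injured cortex was above every library of the other groups, and the lowest culture was above the highest uninjured library. Its means were 11.3 ± 3.38 CPM in cultures, 117 ± 75.9 CPM in injured cortex and 5.74 ± 0.68 CPM in uninjured cortex (SD, n = 3 each). It rose in injured over uninjured cortex by 4.35 ± 0.52 (adjusted p = 0.000259), or by 4.15 (adjusted p = 0.0442) with uninjured replicates 2 and 3 left out. Cultures were lower than injured cortex by edgeR's test, with a log2 change of -3.37 ± 0.50 (adjusted p = 0.000177). Between cultures and uninjured cortex the change was 0.98 ± 0.48 (adjusted p = 0.0927). Its adjusted p passed the threshold there when low counts were not filtered (0.00113), in a fit of those groups alone (0.0123) and when injured replicate 3 was dropped (0.00332). On uninjured replicate 1 alone it was 0.79 (adjusted p = 0.433).

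Ms4a6c and Ms4a6b are near copies in sequence and neighbours on the chromosome. Ms4a6c had 39.9, 43.5 and 33.1 CPM in cultures, 235, 184 and 65.2 CPM in injured cortex and 11.5, 16.2 and 15.4 CPM in uninjured cortex. Its groups were ordered without overlap, injured cortex above cultures and cultures above uninjured cortex. The means of Ms4a6c were 38.8 ± 5.26 CPM in cultures, 162 ± 87.1 CPM in injured cortex and 14.4 ± 2.48 CPM in uninjured cortex (SD, n = 3 each). It rose after injury by 3.49 ± 0.40 (adjusted p = 0.000186), and cultures differed from injured cortex by -2.06 ± 0.37 (adjusted p = 0.000789) and from uninjured cortex by 1.43 ± 0.37 (adjusted p = 0.00561). With uninjured replicates 2 and 3 left out, the changes over uninjured cortex were 3.79 for injured cortex (adjusted p = 0.025) and 1.74 for cultures (adjusted p = 0.0462).

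Ms4a6b had 64.8, 81.2 and 54.3 CPM in cultures, 332, 288 and 72.0 CPM in injured cortex and 69.2, 72.4 and 73.9 CPM in uninjured cortex. Injured replicates 1 and 2 were far above all other libraries, and injured replicate 3 lay among both the cultures and the uninjured libraries. Ms4a6b averaged 66.8 ± 13.5 CPM in cultures, 231 ± 139 CPM in injured cortex and 71.8 ± 2.44 CPM in uninjured cortex (SD, n = 3 each). The test called it higher in injured than in uninjured cortex by 1.68 ± 0.42 (adjusted p = 0.0228). The call was lost in a fit of the cortex groups alone (adjusted p = 0.0733), on dropping injured replicate 1 (1.30, adjusted p = 0.117) or 2 (1.49, adjusted p = 0.06), on dropping uninjured replicate 1 (0.0577), 2 (0.0885) or 3 (0.0765), and without uninjured replicates 2 and 3 together (1.72, adjusted p = 0.286). Cultures were lower than injured cortex by the same test (-1.79 ± 0.43, adjusted p = 0.00443). Against uninjured cortex the change in cultures was -0.10 ± 0.42 (adjusted p = 0.839), and it turned to 0.02 without culture replicate 3. On uninjured replicate 1 alone it was -0.06 (adjusted p = 0.945).

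Ms4a4c had the widest range of the 8. It had 0.369, 0.863 and 0.313 CPM in cultures, 698, 303 and 67.9 CPM in injured cortex and 5.03, 6.21 and 5.06 CPM in uninjured cortex. The 3 groups did not overlap, and the spread was widest within injured cortex, where replicate 1 was highest and replicate 3 lowest. The means of Ms4a4c were 0.515 ± 0.303 CPM in cultures, 356 ± 319 CPM in injured cortex and 5.43 ± 0.67 CPM in uninjured cortex (SD, n = 3 each). It rose after injury by 6.03 ± 0.71 (adjusted p = 0.000221), by 5.06 without injured replicate 1 and by 6.13 (adjusted p = 0.0382) with uninjured replicates 2 and 3 left out. Cultures were lower than injured cortex (-9.37 ± 0.86, adjusted p = 4.56e-06), with values of -8.44 without injured replicate 1 and -10.02 without culture replicate 2. They were also lower than uninjured cortex (-3.34 ± 0.78, adjusted p = 0.00283). That last value was -4.00 without culture replicate 2, and it missed the threshold with limma-voom (-3.42, adjusted p = 0.0511). With uninjured replicates 2 and 3 left out it was -3.24 (adjusted p = 0.0286).

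Ms4a4b, the T cell gene, had 4.91, 5.29 and 0.548 CPM in cultures, 245, 99.5 and 49.0 CPM in injured cortex and 4.53, 15.4 and 16.5 CPM in uninjured cortex. Injured libraries were all above the others, while the ranges of cultures and uninjured cortex overlapped. In uninjured cortex the replicates that stood apart, 2 and 3, were the higher ones. Ms4a4b averaged 3.58 ± 2.64 CPM in cultures, 131 ± 102 CPM in injured cortex and 12.1 ± 6.60 CPM in uninjured cortex (SD, n = 3 each). It rose after injury by 3.44 ± 0.72 (adjusted p = 0.00864), by 2.58 (adjusted p = 0.0418) without injured replicate 1, and by 4.84 with the call lost (adjusted p = 0.0745) with uninjured replicates 2 and 3 left out. Cultures were lower than injured cortex by edgeR's test (-5.17 ± 0.79, adjusted p = 0.000233), or -4.35 without injured replicate 1. Cultures over uninjured cortex gave -1.73 ± 0.71 (adjusted p = 0.052). This passed the threshold under 10 of 19 alternatives, among them those that dropped uninjured replicate 1 (-2.12, adjusted p = 0.0208), injured replicate 1 (0.0304) or injured replicate 3 (0.0195), and with a block for the replicate number (-2.09, adjusted p = 0.0264). With uninjured replicates 2 and 3 left out it was -0.32 (adjusted p = 0.816).

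Ms4a1, the CD20 gene of B cells, had the lowest mean of the 8 per kilobase of transcript in all 3 groups. It had 2, 0 and 0 counts in cultures, where 3 counts correspond to 0.184, 0.172 and 0.235 CPM, against 85, 86 and 132 counts in injured cortex and 20, 66 and 49 counts in uninjured cortex. Injured cortex held 4.01, 4.50 and 4.49 CPM and uninjured cortex 1.10, 2.97 and 2.99 CPM. The injured libraries lay close together and above all uninjured ones, where replicate 1 was lowest. A gap of this kind, higher in every injured library, was found in 16.1% of all genes tested, and edgeR's test did not call Ms4a1 (0.88 ± 0.51, adjusted p = 0.305). With uninjured replicates 2 and 3 left out the change was 1.95 and was not called (adjusted p = 0.291). Cultures were lower than both cortex groups (adjusted p = 4.45e-05 against injured and 9.91e-05 against uninjured cortex). Against uninjured cortex the call was kept on uninjured replicate 1 alone (adjusted p = 0.0044), with a fitted ratio 2.11 times the one over all libraries. Over the summed counts and scaled library sizes, the culture level was 0.0099 of that in injured cortex (95% counting interval 0.00119 to 0.0361) and 0.0181 of that in uninjured cortex (0.00217 to 0.0666). These intervals cover counting error only, and all culture counts came from replicate 1.

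The makeup of the family also differed between groups. Taking the counts of the 8 genes as 100%, Ms4a6d and Ms4a7 together held 87.9, 89.9 and 89.9% in cultures, 27.1, 42.6 and 32.3% in injured cortex and 57.6, 45.9 and 48.5% in uninjured cortex. The 3 groups did not overlap, and the culture libraries lay within a narrow band. Ms4a4a, Ms4a4b and Ms4a4c together held 1.73, 1.42 and 0.892% in cultures, 48.4, 30.4 and 34.8% in injured cortex and 6.96, 12.3 and 11.6% in uninjured cortex. In uninjured cortex Ms4a6b and Ms4a6d together made up 83.5, 73.7 and 72.0% of the family counts. Within injured cortex single genes varied in share, from Ms4a4a at 7.77, 7.76 and 7.67% to Ms4a4c at 30.0, 17.1 and 15.8% and Ms4a6c at 10.1, 10.4 and 15.1%. The 8 genes summed to 1007, 1433 and 948 CPM in cultures, 2326, 1772 and 430 CPM in injured cortex and 231, 219 and 232 CPM in uninjured cortex. Shares of one sum move against each other, longer transcripts give more counts, and no test was made of the shares.

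**Figure D3:**
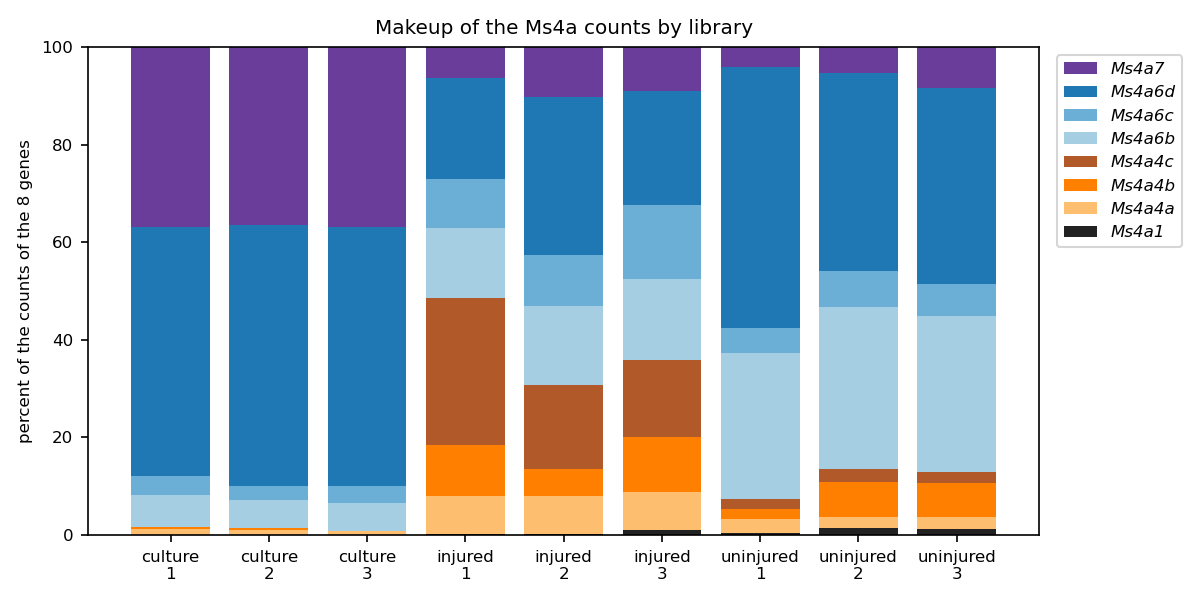
Share of each Ms4a gene in the counts of the 8 genes, in percent, one bar per library, with cultures, injured cortex and uninjured cortex from left to right. Ms4a6d and Ms4a7 fill 87.9 to 89.9% of the culture bars, and the Ms4a4 genes fill 30.4 to 48.4% of the injured bars.

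Ratios within a library do not depend on the scaling between libraries. The ratio of Ms4a7 to Ms4a6d counts was 0.722, 0.681 and 0.693 in cultures, 0.308, 0.316 and 0.385 in injured cortex and 0.0764, 0.132 and 0.211 in uninjured cortex. It was highest in cultures and lowest in uninjured cortex with no overlap, and injured replicate 3 stood with its group. The ratio of Ms4a6c to Ms4a6b was 0.615, 0.535 and 0.610 in cultures, 0.706, 0.640 and 0.906 in injured cortex and 0.167, 0.224 and 0.208 in uninjured cortex. Uninjured cortex was set apart on this ratio, and cultures and injured cortex lay side by side without overlap. Ms4a4c over Ms4a4a was 0.0305, 0.0607 and 0.0412 in cultures, 3.87, 2.20 and 2.06 in injured cortex and 0.771, 1.18 and 0.933 in uninjured cortex. Ms4a4c over Ms4a4b, both near copies, was 0.075, 0.163 and 0.571 in cultures, 2.85, 3.04 and 1.39 in injured cortex and 1.11, 0.403 and 0.307 in uninjured cortex. Culture replicate 3 overlapped the uninjured libraries on this last ratio, with few counts of either gene. These ratios are descriptions without a test.

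**Figure D4:**
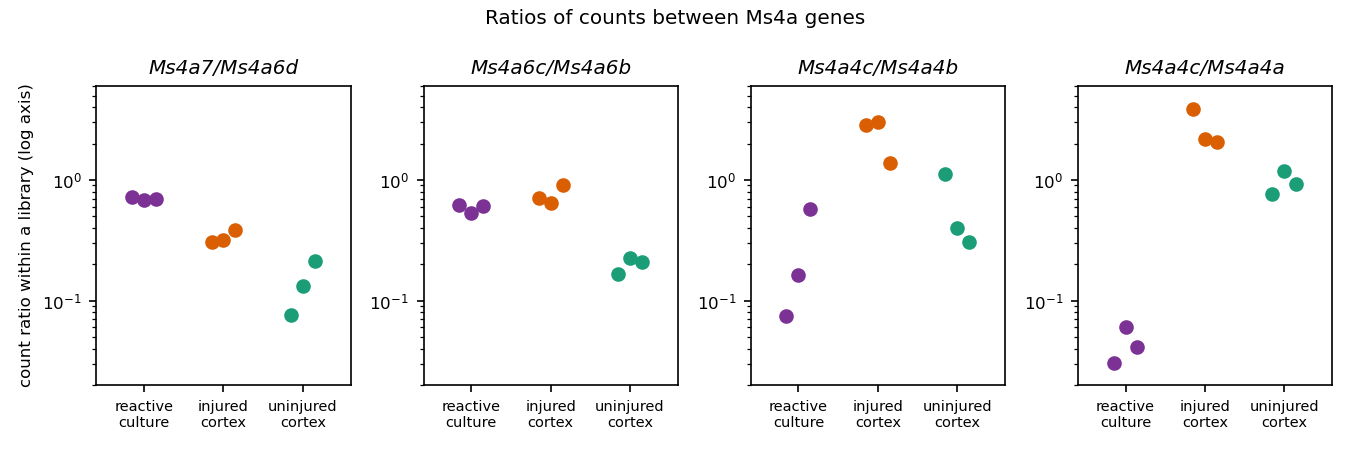
Ratio of counts between pairs of Ms4a genes within each library, on a log axis, with cultures, injured cortex and uninjured cortex from left to right; points are libraries in replicate order. Ms4a7 over Ms4a6d lies between 0.681 and 0.722 in cultures, between 0.308 and 0.385 in injured cortex and between 0.0764 and 0.211 in uninjured cortex.

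Levels can be ordered between genes once divided by transcript length, here the longest coding transcript of GENCODE M21, which may not be the one these cells use. In CPM per kilobase, Ms4a6d (419) was above Ms4a7 (263) in cultures, and both were above Ms4a6b (24.9) and Ms4a6c (21.1), whose ranges overlapped. Ms4a4a (13.5) followed, then Ms4a4b (0.754) and Ms4a4c (0.299), which overlapped, and Ms4a1 was last (0.0133). In injured cortex the order by mean was Ms4a6d (272), Ms4a4c (207), Ms4a4a (140), Ms4a6c (87.7), Ms4a6b (86.1), Ms4a7 (77.9) and Ms4a4b (27.6), with overlap between all neighbours, and Ms4a1 (1.41) below them all. In uninjured cortex Ms4a6d (71.8) stood above Ms4a6b (26.8), which stood above Ms4a7 (8.63), Ms4a6c (7.80) and Ms4a4a (6.86), whose ranges overlapped. Ms4a4c (3.15), Ms4a4b (2.55) and Ms4a1 (0.766) came last, with overlap between neighbours. Ms4a7 therefore ranked above Ms4a6b per kilobase in cultures and below it in uninjured cortex.

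Some members are alike enough in sequence that reads may have been split or lost between them. Ms4a4b and Ms4a4c were identical at 91.8% of aligned coding bases, Ms4a6b and Ms4a6c at 86.3%, Ms4a6b and Ms4a6d at 81.8% and Ms4a6c and Ms4a6d at 79.7%. Of the 50-base stretches of each gene's transcripts, the share found in a transcript of another gene was 11.3% for Ms4a6c, 8.19% for Ms4a4c, 5.89% for Ms4a6b, 4.19% for Ms4a4b and 2.69% for Ms4a6d. It was 0% for Ms4a1, Ms4a4a and Ms4a7. Not all of this sharing was between members. It took in 10 genes outside the Ms4a family for Ms4a6c, 1 each for Ms4a6b and Ms4a6d, and Ms4a2 for Ms4a4b. For stretches of 100 bases the share was 1.66% for Ms4a4c, 0.88% for Ms4a4b and 0.57% for Ms4a6c. It was 0% at that length for Ms4a6b and Ms4a6d. How the counting treated shared reads is not given in the sources used here, so the split between Ms4a4b and Ms4a4c and among the Ms4a6 genes is uncertain to that extent.

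Markers of the blood and brain cells that could carry these genes moved with the groups, and their part in the Ms4a results was not tested. The monocyte list had 8 of 8 genes higher in injured than in uninjured cortex, and its summed level was 339 to 2022 CPM in injured cortex, against 32.9 to 67.5 CPM in uninjured cortex. Injured replicate 1 was highest and replicate 3 lowest for this sum and also for the neutrophil, dendritic and T and NK cell sums, as for Ms4a4a, Ms4a4b, Ms4a4c, Ms4a6b and Ms4a6c. Ccr2, the chemokine receptor of inflammatory monocytes, averaged 1.59 ± 1.07 CPM in cultures, 132 ± 76.8 CPM in injured cortex and 4.93 ± 1.91 CPM in uninjured cortex (SD, n = 3 each). In cultures the list summed to 201 to 325 CPM, of which the matrix gene Fn1, also a gene of other cells, held 306, 180 and 236 CPM. Fn1 was called higher in cultures than in injured cortex, and the other 7 genes of the list were called lower. Ms4a6d and Ms4a7 were instead highest in injured replicate 2, as were the pan-myeloid, microglia, border macrophage and B cell sums. Of the neutrophil list 5 of 8 genes rose after injury and of the dendritic cell list 5 of 7, and none fell. The neutrophil sum was 175 to 208 CPM in cultures, 288 to 394 CPM in injured cortex and 33.2 to 112 CPM in uninjured cortex. Most of the culture sum was the collagenase gene Mmp8, at 165 ± 8.65 CPM in cultures, 12.1 ± 4.83 CPM in injured cortex and 2.30 ± 0.84 CPM in uninjured cortex (SD, n = 3 each), while 7 of the 8 genes were called lower in cultures than in injured cortex, among them S100a9, with 0, 0.288 and 0 CPM in cultures. The dendritic cell sum was 45.5 to 59.8 CPM in cultures, 88.8 to 413 CPM in injured cortex and 29.8 to 49.8 CPM in uninjured cortex. Most of that culture sum was the integrin gene Itgax, at 48.1 ± 8.14 CPM in cultures, 16.4 ± 2.59 CPM in injured cortex and 1.15 ± 0.47 CPM in uninjured cortex (SD, n = 3 each), while 5 of the 7 genes were lower in cultures than in injured cortex.

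Markers of microglia and border macrophages moved otherwise. Of 8 microglia genes none was called between injured and uninjured cortex, and 8 were lower in cultures than in either. The microglia list summed to 1387 to 2153 CPM in cultures, 5273 to 15170 CPM in injured cortex and 8786 to 14010 CPM in uninjured cortex. P2ry12, the purinergic receptor of resting microglia, averaged 8.32 CPM in cultures, 1381 CPM in injured cortex and 2779 CPM in uninjured cortex. The border macrophage list summed to 415 to 638 CPM in cultures, 111 to 150 CPM in injured cortex and 87.0 to 161 CPM in uninjured cortex. Cultures were highest both for this sum and for Ms4a7. The cortex groups overlapped on the sum and not on Ms4a7. Culture replicate 2 had the most Ms4a7 and the lowest sum of the cultures. Most of the culture sum was a single gene, Pf4, with 375, 214 and 267 CPM in the cultures. Pf4 averaged 285 ± 82.3 CPM in cultures against 19.7 ± 7.88 CPM in injured cortex and 20.4 ± 5.84 CPM in uninjured cortex (SD, n = 3 each). How the sum relates to Ms4a7 was not tested. Of this list Cd209f was at 0 in all cultures, and 3 genes were higher and 2 lower in cultures than in injured cortex.

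Lymphocyte markers were set beside the T and B cell members. All 11 T and NK cell genes rose after injury, and their sum was 112 to 431 CPM in injured cortex, against 12.3 to 43.6 CPM in uninjured cortex. Uninjured replicates 2 and 3 were again higher than replicate 1, as for Ms4a4b. This order was not particular to T cells. It also held for the monocyte, neutrophil, border macrophage, dendritic and mast cell sums and for Ms4a1, Ms4a4c, Ms4a6b, Ms4a6c and Ms4a7. For Ms4a4c replicate 3 was only just above replicate 1 (5.06 against 5.03 CPM). Replicates 2 and 3 were lower than replicate 1 for the pan-myeloid, microglia and B cell sums and for Ms4a4a and Ms4a6d. The T and NK cell sum was 14.0 to 26.8 CPM in cultures, with Ncr1 at 0 in all of them. The T cell receptor gene Trac was called higher in cultures than in uninjured cortex (8.28 ± 0.64 CPM against 3.48 ± 0.86 CPM, SD, n = 3 each; log2 change 1.25, adjusted p = 0.0191). Of the 11 genes 3 were lower there and the other 7 were not called. The B cell list had 3 of 7 tested genes called higher after injury, and it summed to 23.5 to 27.4 CPM in cultures, 232 to 550 CPM in injured cortex and 248 to 380 CPM in uninjured cortex. Pax5, a transcription factor of B cells, was at 0 in all cultures and at most 0.51 CPM in any cortex library, too low to be tested. Of the 7 tested genes, 6 were called lower in cultures than in injured cortex and 6 lower than in uninjured cortex. Of all genes tested, 30.1% and 33.1% were called lower there. Cd22, a B cell inhibitory receptor, went the other way and held most of the culture sum. It averaged 21.0 ± 0.87 CPM in cultures, 8.03 ± 1.15 CPM in injured cortex and 2.91 ± 0.20 CPM in uninjured cortex (SD, n = 3 each). It was called higher in cultures than in injured cortex (1.39, adjusted p = 0.000433) and than in uninjured cortex (2.85, adjusted p = 1.66e-06). Ighm, the immunoglobulin heavy chain gene that led the list, had 358, 458 and 175 CPM in injured cortex, against 340.5, 203 and 211 CPM in uninjured cortex, and was not called (0.39, adjusted p = 0.502). Mast cell genes, the remaining blood list, summed to at most 10.9 CPM in any library. Of the other brain cells, oligodendrocyte genes summed to 301 to 532 CPM in cultures, 9865 to 14110 CPM in injured cortex and 15930 to 28540 CPM in uninjured cortex, and astrocyte genes to 32.0 to 42.1 CPM in cultures, 883 to 1478 CPM in injured cortex and 1109 to 1867 CPM in uninjured cortex. Endothelial genes summed to 64.6 to 99.0 CPM in cultures, 104 to 220 CPM in injured cortex and 60.0 to 196 CPM in uninjured cortex. Fibroblast genes summed to 68.5 to 208 CPM in cultures, 39.4 to 125 CPM in injured cortex and 18.9 to 30.0 CPM in uninjured cortex.

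**Figure D5:**
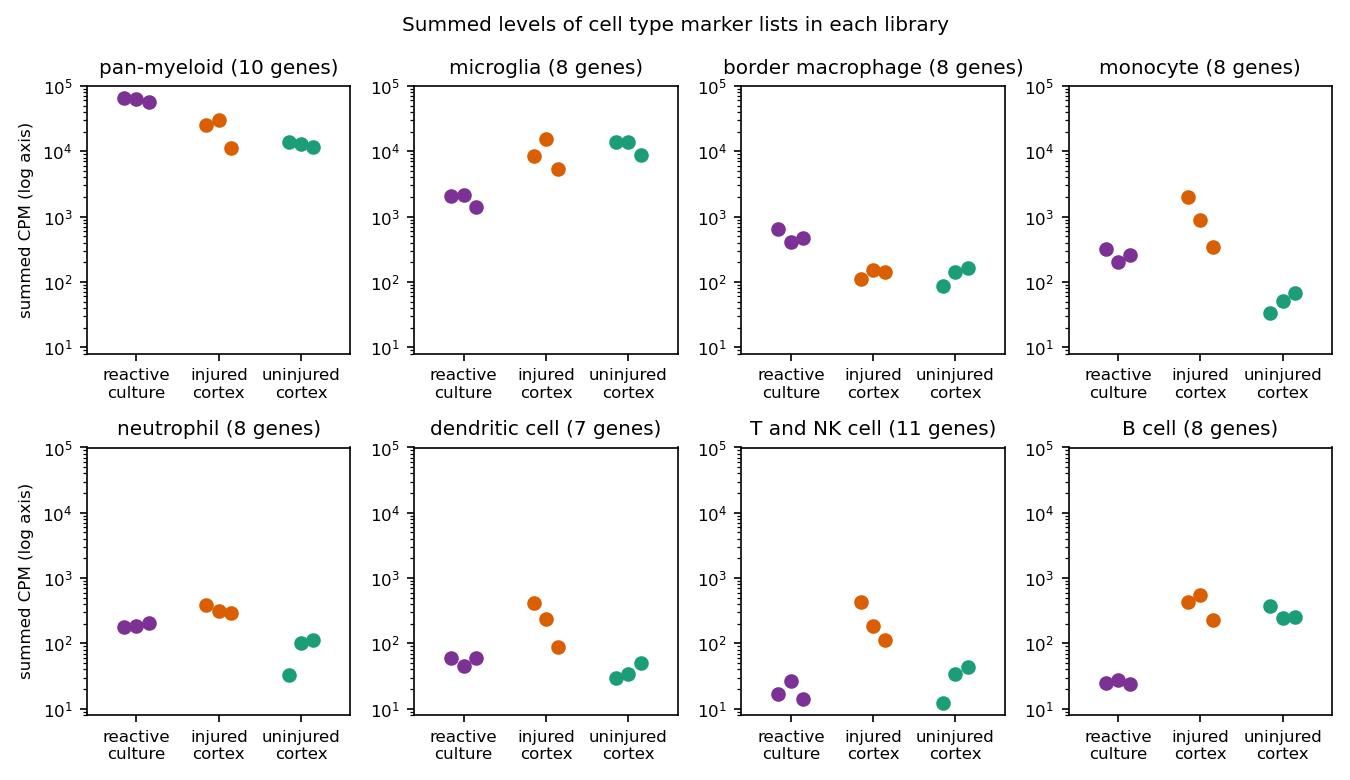
Summed level of 8 marker lists in each library, in CPM on a log axis, with cultures, injured cortex and uninjured cortex from left to right; points are libraries in replicate order. Monocyte, neutrophil, dendritic and T and NK cell sums are higher in every injured than in every uninjured library. The border macrophage sum is highest in cultures (415 to 638 CPM) and the B cell sum is lowest there (23.5 to 27.4 CPM).

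The members were also set against the summed counts of 10 genes shared by myeloid cells, as a description without a test. How many of all genes do not overlap between groups on that scale was not computed. Per 1000 counts of that list, Ms4a4c held 27.4, 9.94 and 6.06 counts in injured cortex, against 0.361, 0.486 and 0.442 in uninjured cortex, a log2 ratio of 5.07 between the means. The log2 ratio was 3.43 for Ms4a4a, 2.62 for Ms4a6c, 2.54 for Ms4a4b and 2.20 for Ms4a7, each without overlap. Ms4a6d gave 0.97, with its lowest injured value of 8.97 just above the highest uninjured value of 8.89, and Ms4a6b gave 0.76 with overlap. In cultures this denominator was led by Lyz2, the lysozyme gene of macrophages, at 43110 ± 3817 CPM against 4462 ± 2619 CPM in injured cortex and 489 ± 34.9 CPM in uninjured cortex (SD, n = 3 each). Cultures over uninjured cortex gave log2 ratios of -1.34 for Ms4a4a and -0.89 for Ms4a6c on this scale, and 0.61 and 1.06 once Lyz2 and Cd68 were left out of the list. Ms4a6d gave 0.25 with overlap and 2.19, and Ms4a7 gave 2.58 and 4.52. Cultures over injured cortex gave -0.72 for Ms4a6d and 0.38 for Ms4a7, both with overlapping groups, and 0.93 and 2.04 without overlap once Lyz2 and Cd68 were left out. The result for injured over uninjured cortex also depended on the list. Without Lyz2 and Cd68 it gave 1.25 for Ms4a6d and 1.05 for Ms4a6b, both without overlap.

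A list of 12 genes of the TREM2 pathway was counted beside the members, since human MS4A genes have been linked to that receptor. After injury 2 of the 12 rose and none fell, with a median log2 change of 0.36, where 11.9% of all genes tested were called. The 2 were Hcst, a signalling adaptor (1.50 ± 0.27, adjusted p = 0.00357), and Syk, a kinase (0.97 ± 0.22, adjusted p = 0.0142). In cultures over injured cortex 1 of the 12 rose and 4 fell, with a median of 0.07, where 50.1% of all genes were called. Over uninjured cortex 5 rose and 3 fell, with a median of 0.62, where 60.5% of all genes were called. The list was thus called about as often as genes at large in both culture comparisons. The called genes in cultures over injured cortex were the lipid carrier Apoe, which rose by 1.28, and Clu (-5.51), Cd33 (-1.72), Inpp5d (-1.30) and Hcst (-0.86). Trem2 itself had 726, 851 and 929 CPM in cultures, 517, 1053 and 593 CPM in injured cortex and 732, 913 and 824 CPM in uninjured cortex. Its groups overlapped, and it was called in none of the 3 comparisons (adjusted p from 0.573 to 0.955).

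Beyond the 8, the table held 13 further Ms4a genes. Of these, 5 were at 0 counts throughout, 6 had at most 39 counts in all and did not pass the filter, and 2 were tested. Ms4a14, the neighbour of Ms4a7, had 5.65, 6.27 and 4.46 CPM in cultures, 0.708, 1.73 and 0.783 CPM in injured cortex and 0.110, 0.315 and 0.244 CPM in uninjured cortex. It was called higher in injured than in uninjured cortex (2.20, adjusted p = 0.0214), in cultures than in injured cortex (2.36, adjusted p = 0.00147) and in cultures than in uninjured cortex (4.56, adjusted p = 2.45e-05). Ms4a8a had 0.491, 1.09 and 0.704 CPM in cultures, 11.2, 5.55 and 1.97 CPM in injured cortex and 0.166, 0.090 and 0.244 CPM in uninjured cortex. It rose after injury (5.21, adjusted p = 0.000746), and in cultures it was below injured cortex (-3.01, adjusted p = 0.0019) and above uninjured cortex (2.20, adjusted p = 0.0244). Tmem176a and Tmem176b, related 4-pass proteins, rose after injury by 0.87 and 0.80 (adjusted p = 0.0299 and 0.0442) and were lower in cultures than in injured cortex by edgeR's test (-4.46 and -3.55).

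Other genes followed the members closely over the 9 libraries. Likeness is the root mean square difference of log2 CPM, each gene centred on its mean, among 11104 genes of at least 5 CPM on average, and smaller values are more alike. All points come from the same libraries and scaling, so likeness is a description. Ms4a6d was nearest to Igsf6 (0.186), Rab32 (0.298) and Apobec1 (0.323), and Ms4a7 to Mcub (0.308), Cks1b (0.315) and Dok2 (0.339). Ms4a4a was nearest to Arg2 (0.461), Ccl5 (0.471) and an unnamed gene (0.5). Ms4a6c was nearest to Trac (0.266), Fgl2 (0.275) and Tgfbi (0.318), and Ms4a6b to C130050O18Rik (0.255), H2-DMb1 (0.283) and Ly6e (0.298). Ms4a4c lay farther from its nearest genes, Plac8 (0.563), Klrk1 (0.651) and P2ry10 (0.84). Ms4a4b was nearest to Icos (0.525) and Cd3g (0.621). Ms4a1 was nearest to an unnamed gene (0.569), Ppfia4 (0.596) and E230029C05Rik (0.609), of which none belongs to the B cell list. Among the members themselves the closest pair was Ms4a4a and Ms4a6c (0.574), followed by Ms4a6b and Ms4a6c (0.843) and by Ms4a6d and Ms4a7 (1.06).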

How the data were processed

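Gene expression was measured in 9 libraries of polyadenylated mouse RNA, 3 per group, grouped by their titles. The values are raw counts per gene as deposited by the authors. Per the submitters' processing notes, HISAT2 and GRCm39 were used. The sources used here do not name versions, the counting tool, the strand setting or the annotation, and antisense or shared reads could not be told apart. The table held 56748 genes, of which 19741 had 0 counts throughout, and 77 symbols belonged to more than 1 gene, none of them a member's.

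Counts were tested in R 4.3.3 with edgeR 4.0.16 (TMM, filterByExpr by group, quasi-likelihood F test, 1 mean per group), with Benjamini-Hochberg adjustment over 18093 genes. The SE is the size of the log2 fold change over the square root of F. Nothing in the labels pairs libraries across groups, and the study calls its replicates biological. Ratios with few counts carry exact 95% counting intervals. Sums over marker lists are TMM-normalised CPM. Promoter letters were searched on both strands, and sequences were aligned with Biopython 1.88. The test of injured over uninjured cortex was checked on simulated counts in which few genes changed, equally up and down. The culture comparisons, where far more genes were called, were not checked in this way.

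The members, lists and alternatives were chosen with earlier results of these data known. Genes named besides the members are other Ms4a genes, 2 Tmem176 genes, up to 4 genes of the TREM2 list, up to 3 genes nearest each member and markers; Pax5, Ncr1, Cd209f, Trem2, and Hcst in cultures over injured cortex were named after their values were seen. Some results under these rules are left out of the text. Astrocyte, oligodendrocyte, endothelial and fibroblast lists were also summed. Alternatives were other scalings (DESeq2 1.42.0 size factors, upper quartile, library sizes without abundant genes), other filters, a replicate block, fits of 2 groups alone, the DESeq2 Wald test, limma-voom (limma 3.58.1) and libraries left out.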

Additional observations from a re-analysis of the deposited data

How the results depend on the processing

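Each of the 8 genes was recomputed under 19 alternatives per comparison. Besides those given with each gene, directions and calls held, except that Ms4a6b in cultures over uninjured cortex (-0.10, not called) ranged from -0.31 to 0.024 when 1 library was left out, positive without culture replicate 3. Leaving out uninjured replicates 2 and 3 together, where the remaining uninjured library is assumed to vary like the other groups, gave 445 called genes (2145 with all libraries) and 4 called members (7 with all) in injured over uninjured cortex, and 7015 called genes (10954 with all) in cultures over uninjured cortex. A fit of the cortex groups alone called 1370 genes between them. For those groups, leaving out 1 library gave 979 to 4187 genes, lowest without injured replicate 1 and highest without injured replicate 3, with 1140 without uninjured replicate 2 and 1285 without uninjured replicate 3, and 5 to 7 members. The causes were not tested. Per count of the pan-myeloid list, Ms4a4a and Ms4a6c in cultures over uninjured cortex turned from -1.34 and -0.89 to 0.61 and 1.057 without Cd68 and Lyz2, and Ms4a6d in cultures over injured cortex from -0.72 to 0.93. Ms4a7 there moved from 0.38 to 2.04. Lyz2 alone makes up most of that denominator in cultures. Other scalings moved the median of all genes in injured over uninjured cortex from 0.00 to -0.12 (upper quartile) and -0.15 (library sizes without the most abundant genes). In cultures it moved to -0.46 over injured and -0.59 over uninjured cortex with those library sizes.

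Replicate numbers are shared by the groups, but same-numbered libraries deviated together in only some pairs (correlations from -0.088 to 0.353), so the numbers were not taken to pair samples. With the number as a replicate block, 2203 genes were called in injured over uninjured cortex, 9096 in cultures over injured cortex and 11060 in cultures over uninjured cortex, with 7, 7 and 6 members. The spread of injured cortex, where replicate 3 was lowest for 7 of the 8 genes, limits the precision of changes that involve it, and 2 counts limit Ms4a1 in cultures.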
